A study of Mus musculus with 12 samples.

Results

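The collagen gene family was followed in bone marrow of irradiated and nonirradiated mice that received parathyroid hormone (PTH) or vehicle. Its members were all array rows whose only gene symbol was Col, digits, a and digits, which gave 46 rows and, with the row of the highest mean for Col6a5 and Col6a6 (2 rows each), 44 genes of 19938 genes measured. They were placed in 6 classes: 8 fibrillar, 7 cartilage, 8 basement membrane, 6 beaded filament (type VI), 6 other fibril-associated and 9 other genes. Total RNA was taken from B6 mice as unsorted marrow, washed out of long bones with Trizol, and measured on 12 arrays, 3 in each of 4 groups.

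Mice of the nonirradiated vehicle and nonirradiated PTH groups were not irradiated and received vehicle or PTH, a peptide hormone that builds bone when given intermittently, from day 11 to day 15 of age. Mice of the irradiated vehicle and irradiated PTH groups received 2 sub-lethal fractions of 310 cGy each at day 10 and then the same 5 days of vehicle or PTH. The series design asks how a changed marrow environment bears on the action of PTH, and the labels give day 16 as the age of the mice. The labels do not state whether the 3 arrays of each group stand for 3 mice, pools or repeats, so a p-value here reflects only the scatter among the arrays, which may in part be technical. The PTH dose is not given in the labels.

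Collagens are secreted proteins of 3 chains wound into a triple helix, and each gene encodes 1 chain. Fibrillar collagens form the tension-bearing fibrils of bone and connective tissue, with type I as the main protein of bone; type II, IX, X and XI chains are typical of growth cartilage. Type IV collagen forms the sheet of basement membranes around vessels and other structures, and type VI collagen forms beaded filaments that lie close to cells. Bone-forming, cartilage, vessel-associated and stromal cells are among the cells that make these chains. Arrays of unsorted marrow do not show which cells the RNA came from.

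Values are log2 expression, so that a difference of 1 is a change of 2-fold, and the level of 1 gene cannot be set against that of another because each is read by its own probes. Over all 12 arrays the means of the collagen genes lay between 4.98 and 10.39, and 24 of 44 lay at or above the median of all gene means (6.48). By class, 7 of 8 fibrillar, 6 of 7 cartilage, 4 of 6 beaded filament, 2 of 8 basement membrane, 2 of 6 other fibril-associated and 3 of 9 other genes did. Genes below that median are read at a level where arrays respond weakly to changes in RNA.

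Markers of marrow cells were read on every array: mean levels per array lay between 10.79 and 11.73 over 6 neutrophil markers, between 9.86 and 10.87 over 4 erythroid markers and between 7.29 and 8.22 over 8 osteoblast markers. A narrower range of values than on the other 10 arrays was seen on replicate 3 of nonirradiated vehicle (interquartile range 2.63) and on replicate 3 of irradiated PTH (2.66). Xist and Y-linked genes gave a female pattern in 0 of 3 nonirradiated vehicle arrays, 3 of 3 nonirradiated PTH arrays and 1 of 3 arrays in each irradiated group. PTH and sex can therefore not be told apart in the nonirradiated groups. In whole marrow, fewer cells of a type and less RNA per cell cannot be told apart either.

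After irradiation, averaged over both treatments, 2 collagen genes rose and 1 fell. Col6a3, a chain of type VI collagen, rose by 0.55 on the log2 scale (SE 0.125, 1.47-fold) and Col4a2, a chain of the main basement membrane collagen, by 0.37 (SE 0.0984, 1.29-fold). Col14a1, which encodes a collagen that binds to the surface of fibrils, fell by 0.33 (SE 0.0782, 1.25-fold). Their adjusted p values, by limma with Benjamini-Hochberg adjustment over all genes, were 0.0208, 0.0494 and 0.0277. These 3 of 44 genes are 6.82% of the family, next to 6.1% of all 19938 genes called in the same comparison, so the share called lay near the background. In irradiation within vehicle mice 2.22% of all genes were called, and in irradiation within PTH mice 2.43%, and 0 collagen genes were called in either. At an unadjusted p under 0.05 there were 7 of 44 in vehicle mice (15.9%, next to 13.3% of all genes), 3 in PTH mice (6.82%, next to 13.4%) and 7 in the average (15.9%, next to 17.3%).

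**Figure D1:**
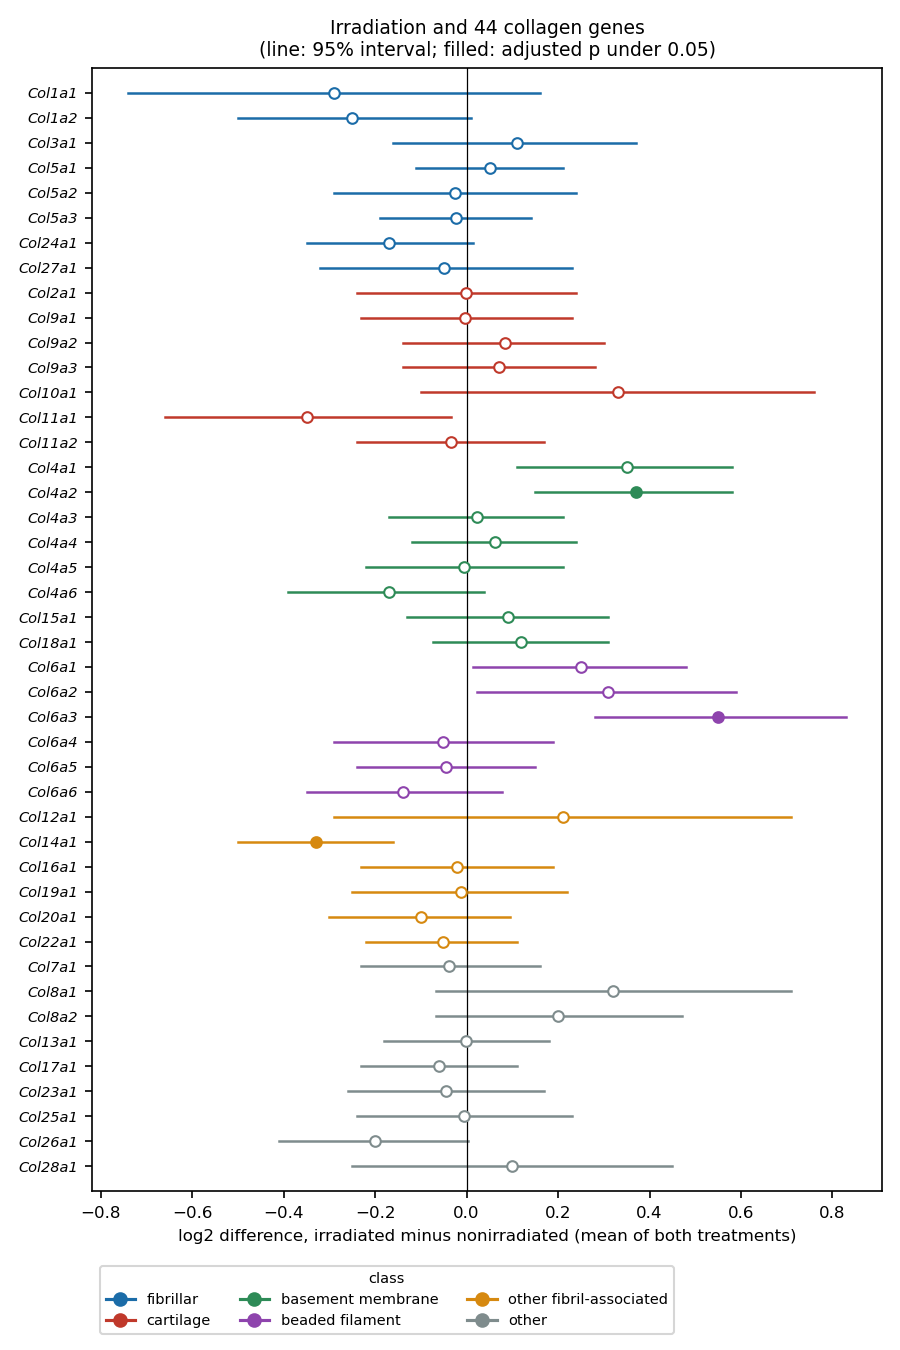
Difference in log2 expression between irradiated and nonirradiated marrow, averaged over both treatments, for the 44 collagen genes by class. Points are the fitted differences, lines their 95% intervals, and filled points the 3 genes past the threshold: Col4a2 and Col6a3 to the right of 0 and Col14a1 to the left.

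Type VI collagen is built mainly from 1 chain each of Col6a1, Col6a2 and Col6a3. Col6a3 lay at 7.37, 7.51 and 7.60 in the nonirradiated vehicle arrays and at 7.87, 7.82 and 7.67 in the nonirradiated PTH arrays. It lay at 8.40, 8.04 and 8.11 in the irradiated vehicle arrays and at 8.31, 8.51 and 7.78 in the irradiated PTH arrays. Of the 6 irradiated arrays, 5 lay above every nonirradiated array, and irradiated PTH replicate 3, an array with a narrow range, lay among the nonirradiated PTH arrays. Within vehicle mice the difference was 0.69 (SE 0.177, adjusted p = 0.0742) and the arrays did not overlap. Within PTH mice it was 0.42 (SE 0.177, adjusted p = 0.332). Without irradiated PTH replicate 3 the averaged difference was 0.66 (adjusted p = 0.00144) and that in vehicle mice passed the threshold (adjusted p = 0.0123), its size being unchanged because that array enters it only through the shared estimate of spread. Col6a3 was called in 9 of the 12 fits that left out 1 array, and its adjusted p was 0.0611 when replicate 3 of nonirradiated PTH was left out, 0.0532 when replicate 1 of irradiated vehicle was and 0.0561 when replicate 1 of irradiated PTH was.

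The partner chains differed in the same direction by less and were not called. Col6a1 lay at 7.21, 7.53 and 7.20 in nonirradiated vehicle arrays, 7.30, 7.55 and 7.43 in nonirradiated PTH arrays, 7.91, 7.62 and 7.42 in irradiated vehicle arrays, and 7.70, 7.59 and 7.46 in irradiated PTH arrays. Irradiated and nonirradiated arrays overlapped for this gene, and the averaged difference was 0.25 (SE 0.106, adjusted p = 0.252). Col6a2 lay at 6.79, 7.37 and 7.21, then 7.26, 7.28 and 6.97, then 7.77, 7.44 and 7.32, then 7.59, 7.46 and 7.13 in the same order of groups. Its averaged difference was 0.31 (SE 0.13, adjusted p = 0.242), again with overlap. Replicate 1 gave the highest value of its group for both genes in both irradiated groups. The remaining chains of the class, Col6a4, Col6a5 and Col6a6, had averaged differences of -0.05, -0.05 and -0.14. With 3 chains above 0 and 3 below, the median over the 6 chains was 0.1, next to -0.0087 over all genes. It lay between 0.062 and 0.16 in the 20 other fits, which share most of their arrays. The median therefore does not describe a shift of the whole class.

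The bases just before the starts of Col6a3 and Col6a1 are shown because Col6a3 had the largest averaged difference of the family and Col6a1 is its partner chain. Both come from the RefSeq promoter table of build GRCm38.p6, are read 5′ to 3′ on the gene's own minus strand and end at the base before the gene's start. The Col6a3 window covers 250 bases at chr1:90843972-90844221 and that of Col6a1 covers 250 bases at chr10:76726045-76726294. Both strands of each window were searched for the GC box GGGCGG, the CCAAT box CCAAT and the TATA box TATAAA, and a match would stand in capitals.
Col6a3: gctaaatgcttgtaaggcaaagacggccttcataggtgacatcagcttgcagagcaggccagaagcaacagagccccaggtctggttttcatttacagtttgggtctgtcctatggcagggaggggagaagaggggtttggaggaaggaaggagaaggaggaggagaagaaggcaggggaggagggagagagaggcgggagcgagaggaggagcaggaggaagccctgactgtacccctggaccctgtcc
Col6a1: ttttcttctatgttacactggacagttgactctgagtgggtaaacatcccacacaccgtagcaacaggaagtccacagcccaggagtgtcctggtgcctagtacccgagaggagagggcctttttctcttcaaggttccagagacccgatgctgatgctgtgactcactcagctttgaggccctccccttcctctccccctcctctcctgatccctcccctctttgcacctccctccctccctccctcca
Neither window held any of the 3 motifs, and their GC contents were 57.2% and 56.0%. Among 32851 windows of the same length in the table, 32.7% held the GC box, 33.8% the CCAAT box and 12.4% the TATA box.

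Col4a1 and Col4a2 encode the chains that form the common type IV collagen of vessel walls, and both were higher after irradiation. Col4a2 lay at 6.62, 6.87 and 6.91 in nonirradiated vehicle arrays and at 6.61, 6.76 and 6.85 in nonirradiated PTH arrays. It lay at 7.26, 7.20 and 6.96 in irradiated vehicle arrays and at 7.06, 6.99 and 7.34 in irradiated PTH arrays. All 6 irradiated arrays lay above all 6 nonirradiated arrays, the closest values being 6.96 and 6.91. The difference was 0.34 (SE 0.139, adjusted p = 0.307) within vehicle mice and 0.39 (SE 0.139, adjusted p = 0.218) within PTH mice, and the averaged call rests on an adjusted p of 0.0494. It was kept in 2 of the 12 fits that left out 1 array and was lost, for example, with a term for sex (adjusted p = 0.0751) and without nonirradiated PTH replicate 1 (0.134). Of all genes, 4.49% had 6 irradiated and 6 nonirradiated arrays that did not overlap, and of the collagens 2 did (4.55%), Col4a2 and Col14a1.

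Col4a1 lay at 6.30, 6.44 and 6.33 in nonirradiated vehicle arrays, 6.44, 6.67 and 6.33 in nonirradiated PTH arrays, 6.93, 6.69 and 6.76 in irradiated vehicle arrays, and 6.96, 6.82 and 6.42 in irradiated PTH arrays. In vehicle mice its arrays did not overlap, while irradiated PTH replicate 3 lay below 3 of the 6 nonirradiated arrays. The averaged difference of 0.35 (SE 0.108, unadjusted p = 0.00744, adjusted p = 0.0915) did not pass the threshold. Without irradiated PTH replicate 3 it was 0.42 with an adjusted p of 0.0155, and it was also called with array weights, with the quantile normalization repeated, with each array centred on its median and with a term for sex. Which of Col4a1 and Col4a2 passed the threshold thus turned on the setting, while both differences stayed above 0 in all 21 other fits.

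The starts of Col4a1 and Col4a2 lie 21 bases apart on opposite strands of chromosome 8 in RefSeq's GRCm38.p6 table, with Col4a1 starting at base 11312826 on the minus strand and Col4a2 at base 11312805 on the plus strand, so the genes overlap at their 5′ ends. The bases before each start therefore lie within the other gene, and the stretches and motif counts given here are upstream of 1 gene and inside its neighbour. The CCAAT box before each start is shown in capitals within 30 bases of its strand, at chr8:11312954-11312983 for Col4a1 on the minus strand and at chr8:11312761-11312790 for Col4a2 on the plus strand. It begins 145 bases before the start of Col4a1, in the reverse orientation, and 32 bases before the start of Col4a2.
Col4a1: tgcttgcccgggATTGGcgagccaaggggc
Col4a2: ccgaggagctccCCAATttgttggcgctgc
The 250 bases before Col4a2 held 2 GC boxes and those before Col4a1 held 0, and GC contents were 73.6% and 74.4%. Among 38 windows of the 35 collagen genes in the table, 57.9% held the GC box, 34.2% the CCAAT box and 13.2% the TATA box, next to the shares over all windows given for the type VI genes. A match is a description of letters and was not tested for binding.

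The other type IV pairs, which are also neighbours in that table, differed by less on average. Col4a3 and Col4a4, chains of the basement membranes of kidney and lung, had averaged differences of 0.02 and 0.06, and Col4a5 and Col4a6 had -0.01 and -0.17. Col15a1 and Col18a1, which encode basement membrane collagens with large side chains of sugar, had 0.09 and 0.12. Within vehicle mice Col4a6 differed by -0.32 (means of 5.50 and 5.17), at an unadjusted p under 0.05, and was not called. In PTH mice its means were 5.37 and 5.35. Apart from Col4a1 and Col4a2, the chains of this class had averaged 95% intervals that covered 0 and means below the median of all genes. The class median was 0.076, and between 0.04 and 0.11 in the other fits.

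**Figure D2:**
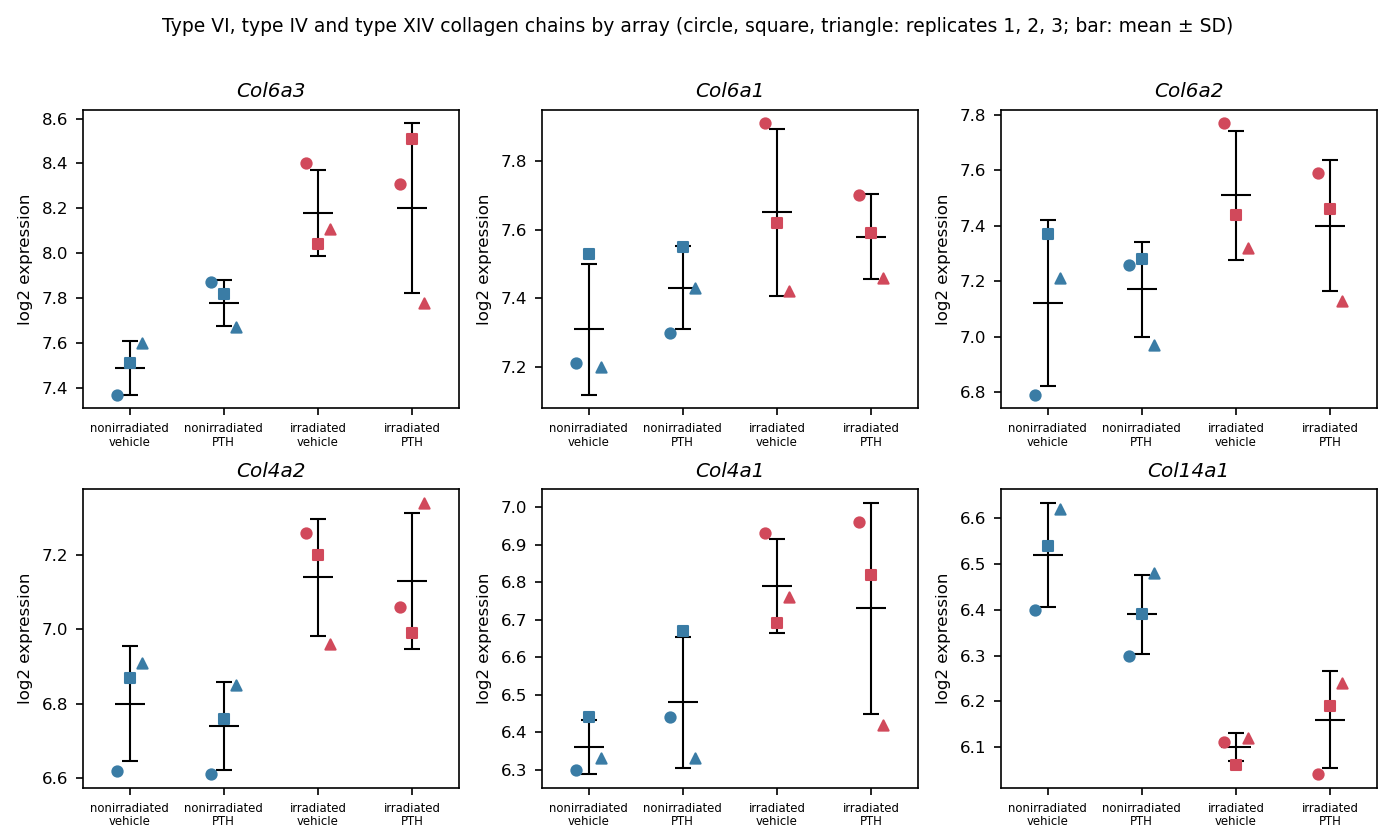
Log2 expression of 3 type VI chains, 2 type IV chains and Col14a1 in each of the 12 arrays by group, with bars for the mean and SD of 3 arrays; each panel has its own axis, which does not start at 0. Col4a2 and Col14a1 show no overlap between irradiated and nonirradiated arrays, and in Col6a3 and Col4a1 replicate 3 of irradiated PTH lies among the nonirradiated arrays.

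Col14a1 was the called collagen that fell. It lay at 6.40, 6.54 and 6.62 in nonirradiated vehicle arrays and at 6.30, 6.39 and 6.48 in nonirradiated PTH arrays. It lay at 6.11, 6.06 and 6.12 in irradiated vehicle arrays and at 6.04, 6.19 and 6.24 in irradiated PTH arrays. All 6 irradiated arrays lay below all 6 nonirradiated arrays, and its within-group spread was small (residual SD 0.0904). The difference was -0.42 (SE 0.111, adjusted p = 0.0809) in vehicle mice and -0.23 (SE 0.111, adjusted p = 0.385) in PTH mice. The call was kept in 4 of the 12 fits that left out 1 array, with a highest adjusted p of 0.0807 when replicate 3 of nonirradiated PTH was left out, and was lost with each array centred on its median (adjusted p = 0.0544), where the 3 called collagens were Col4a1, Col4a2 and Col6a3 and so 3 rose and 0 fell. Its mean of 6.29 lay below the median of all genes, so it was not tested in the fit without dim genes.

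Of the other fibril-associated genes, Col12a1, whose collagen sits on fibrils of tendon and the bone surface, varied most within groups of all 44 genes (residual SD 0.467). It lay at 8.33, 8.40 and 9.14, then 9.55, 8.76 and 8.60, then 9.15, 8.83 and 8.75, then 9.09, 9.71 and 8.49 in the order of groups used for Col6a2. The ranges of all 4 groups overlapped and the averaged difference was 0.21 with a 95% interval from -0.29 to 0.71. Col22a1, a collagen of tissue junctions, lay between 7.08 and 7.15 in the 6 nonirradiated arrays and between 6.91 and 7.31 in the irradiated arrays, with an averaged difference of -0.05. Col16a1, Col19a1 and Col20a1 had averaged differences of -0.02, -0.01 and -0.1.

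No fibrillar collagen passed the threshold in any of the 6 comparisons. Col1a1 and Col1a2 encode both chains of type I collagen, the main protein of bone matrix. Col1a1 lay at 9.59, 10.29 and 10.58 in nonirradiated vehicle arrays and at 10.62, 10.57 and 10.25 in nonirradiated PTH arrays. It lay at 10.36, 10.16 and 10.07 in irradiated vehicle arrays and at 10.18, 10.24 and 9.15 in irradiated PTH arrays. The lowest values were nonirradiated vehicle replicate 1 and irradiated PTH replicate 3, and the group ranges overlapped except between the PTH groups. The difference after irradiation was 0.04 (SE 0.293) in vehicle mice and -0.62 (SE 0.293, adjusted p = 0.386) in PTH mice, and the latter was -0.27 without irradiated PTH replicate 3.

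Col1a2 lay at 10.34, 10.37 and 10.59 in nonirradiated vehicle arrays, 10.85, 10.51 and 10.47 in nonirradiated PTH arrays, 10.37, 10.33 and 10.21 in irradiated vehicle arrays, and 10.38, 10.46 and 9.87 in irradiated PTH arrays. Irradiated PTH arrays lay below nonirradiated PTH arrays without overlap (-0.37, SE 0.167, unadjusted p = 0.0479, adjusted p = 0.367), with 10.46 and 10.47 as the closest values. The averaged difference was -0.25 with a 95% interval from -0.5 to 0.0094. The share of all genes without overlap between the PTH groups was 19.8%, and of the collagens 9 of 44 did not overlap there (20.5%, 6 higher and 3 lower). Between the vehicle groups the shares were 18.8% of all genes and 7 of 44 collagens (15.9%, 3 higher and 4 lower).

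The remaining fibrillar chains differed little. Col3a1, the type III chain of soft connective tissue, had an averaged difference of 0.11 (95% interval -0.16 to 0.37), and Col5a1 and Col5a2, type V chains that set the width of type I fibrils, had 0.05 and -0.03. Col5a1 had the smallest within-group spread of the family (residual SD 0.0693), with all 12 arrays between 6.85 and 7.07, and its 95% interval reached from -0.11 to 0.21. Col24a1, a fibrillar collagen of developing bone, had -0.17 (95% interval -0.35 to 0.015), and Col5a3 and Col27a1 had -0.02 and -0.05. The median of the class was -0.037 and lay between -0.1 and 0.00076 over the other fits.

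Cartilage collagens did not pass the threshold either. Col10a1, the type X chain of hypertrophic chondrocytes, lay at 8.14, 8.07 and 7.69 in nonirradiated vehicle arrays, 8.79, 7.85 and 8.09 in nonirradiated PTH arrays, 7.96, 7.92 and 8.62 in irradiated vehicle arrays, and 8.38, 8.53 and 9.17 in irradiated PTH arrays. Its highest value was irradiated PTH replicate 3, and neighbouring groups overlapped. The averaged difference of 0.33 had a 95% interval from -0.1 to 0.76. Col11a1, a type XI chain of cartilage fibrils, lay at 8.21, 7.69 and 8.40, then 8.48, 7.80 and 7.93, then 7.60, 7.70 and 7.85, then 7.65, 7.89 and 7.73 in the same order. The nonirradiated arrays held the 4 highest values, with an averaged difference of -0.35 (SE 0.144, unadjusted p = 0.0324, adjusted p = 0.224).

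The other cartilage chains stood close to 0. Col2a1, the main collagen of cartilage, lay between 6.70 and 7.25 in nonirradiated and between 6.64 and 7.08 in irradiated arrays, with an averaged 95% interval from -0.24 to 0.24. Col9a1, Col9a2 and Col9a3, the chains of type IX collagen on the surface of type II fibrils, and Col11a2 had averaged 95% intervals that covered 0 and reached no further than -0.24 and 0.3. Of 10 chondrocyte markers that are not collagens, 3 rose after irradiation on average: Matn3 by 0.47, Comp by 0.53 and Ucma by 0.53 (adjusted p = 0.036, 0.0458 and 0.0283), calls kept in 3, 2 and 5 of the 12 fits that left out 1 array. Of all genes 6.1% were called in the averaged comparison. With a term for sex the adjusted p values of Matn3, Comp and Ucma were 0.0544, 0.0432 and 0.0528, so Matn3 and Ucma were lost. Ucma also passed within PTH mice (0.81, adjusted p = 0.0378, kept in 4 of the 12 fits), but not with a term for sex (adjusted p = 0.287). A female pattern was seen in 3 of 3 nonirradiated PTH arrays and 1 of 3 irradiated PTH arrays. The mean of the 10 markers lay between 5.51 and 6.11 in nonirradiated and between 5.88 and 6.2 in irradiated arrays. Aggrecan (Acan), a defining cartilage marker, lay between 5.64 and 6.44 in nonirradiated and between 6.08 and 6.58 in irradiated arrays. Their part in the cartilage collagen values was not tested.

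**Figure D3:**
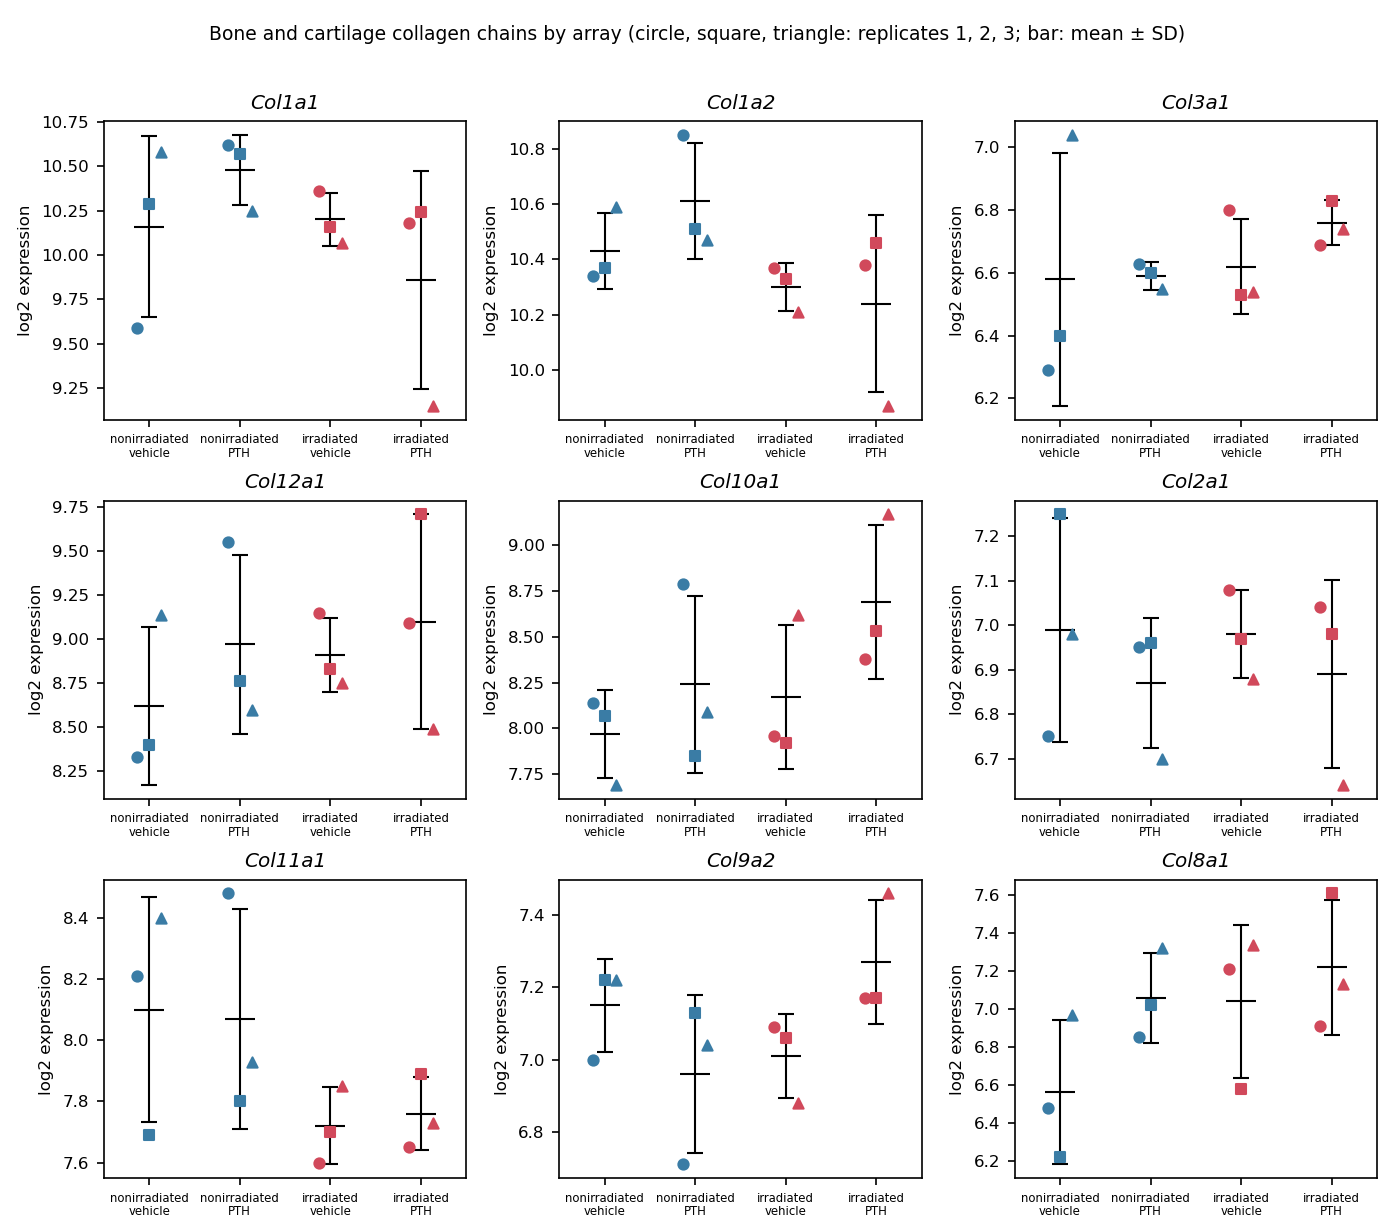
Log2 expression of 9 collagen genes of bone, cartilage and other matrices in each of the 12 arrays by group, with bars for the mean and SD of 3 arrays; each panel has its own axis, which does not start at 0. The single low Col1a1 and Col1a2 values and the single high Col10a1 and Col9a2 values in the irradiated PTH group belong to its replicate 3.

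Among the 9 other collagens, Col8a1, a short-chain collagen of vessel walls and other matrices, lay at 6.48, 6.22 and 6.97 in nonirradiated vehicle arrays, 6.85, 7.02 and 7.32 in nonirradiated PTH arrays, 7.21, 6.58 and 7.34 in irradiated vehicle arrays, and 6.91, 7.61 and 7.13 in irradiated PTH arrays. The nonirradiated vehicle group held the 2 lowest values, but overlapped with the rest, and the averaged difference of 0.32 had a 95% interval from -0.067 to 0.71. Col26a1 lay at 7.04, 7.26 and 7.41 in nonirradiated vehicle arrays and 7.02, 7 and 6.75 in irradiated vehicle arrays, without overlap (-0.31, SE 0.133, unadjusted p = 0.0364, adjusted p = 0.328). The averaged differences of Col7a1, Col8a2, Col13a1, Col17a1, Col23a1, Col25a1 and Col28a1 had 95% intervals that covered 0, the widest from -0.25 to 0.45 in Col28a1.

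Genes that make, bind, cut and anchor collagens were described by lists beside the family. In the averaged comparison, 0 of 21 genes of collagen modification and folding, 0 of 13 of processing and crosslinking and 0 of 13 fibril-binding proteoglycans passed the threshold. Of all genes 6.1% passed there, the share to set beside the lists that follow. Plod3, Plod1 and P4ha3, enzymes that hydroxylate collagen lysines or prolines, had the lowest p of the folding list over the 4 comparisons of single groups, in vehicle mice, with differences of 0.76, 0.74 and 0.69 (adjusted p = 0.398, 0.393 and 0.39). Of the crosslinking list, Tgm2, Loxl1 and Loxl3 had the lowest p over the same 4 comparisons, with 1.07 and 0.46 for the first pair after irradiation in vehicle mice (adjusted p = 0.285 and 0.375) and 0.36 for Loxl3 with PTH in nonirradiated mice (adjusted p = 1). Of the proteoglycan list, Prelp had 0.94 in vehicle mice (adjusted p = 0.196), and Thbs2 and Dcn had 0.41 and -0.79 in PTH mice (adjusted p = 0.228 and 0.246). In the averaged comparison Thbs2 had 0.36 with an adjusted p of 0.064, the lowest of the proteoglycan list. The median averaged differences of these lists were -0.032, -0.075 and 0.019, next to -0.0087 over all genes.

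Among 15 partners of basement membrane collagen, 2 laminin chains rose after irradiation and 0 fell, in a comparison that called 6.1% of all genes. Lamb1, a laminin beta chain, lay at 7.41, 7.75 and 7.53 in nonirradiated vehicle arrays, 8, 7.69 and 7.59 in nonirradiated PTH arrays, 9, 8.46 and 8.49 in irradiated vehicle arrays, and 8.38, 8.31 and 8.01 in irradiated PTH arrays. Every irradiated array lay above every nonirradiated one, where 4.49% of all genes had no overlap. The averaged rise was 0.78 (SE 0.126, 1.71-fold, adjusted p = 0.00264). Lama4, the laminin alpha chain of vessel walls, lay at 6.96, 6.80 and 6.90, then 7.48, 6.63 and 6.62, then 8.22, 7.97 and 7.84, then 8, 8.05 and 7.47 in the same order, with an averaged rise of 1.03 (SE 0.161, 2.04-fold, adjusted p = 0.00214) and an overlap of 1 irradiated PTH array at 7.47 with the nonirradiated array at 7.48. Both calls were kept in all 12 fits that left out 1 array. Both also passed within vehicle mice (1.08, adjusted p = 0.0075, and 1.12, adjusted p = 0.0238), where Lama4 was lost with a term for sex (adjusted p = 0.0625) and both were lost in the vehicle groups alone with a block for replicate number (adjusted p = 0.148 and 0.102). The median averaged difference of the list was 0.12.

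Vessel markers were read beside these values. Of 10 endothelial markers, Emcn rose on average by 0.81 (adjusted p = 0.023, kept in 7 of the 12 fits that left out 1 array), 9 did not pass, and 8 of 10 differences were above 0. Of all genes 6.1% were called in that comparison and 47.8% had differences above 0. The mean of the 10 markers lay between 7.66 and 7.97 in nonirradiated and between 7.65 and 8.24 in irradiated arrays. Pecam1, a defining marker, lay between 8.78 and 9.25 in nonirradiated and between 7.92 and 9.14 in irradiated arrays, and Cdh5 between 8.54 and 9.33 and between 8.84 and 10.1. Of 9 stromal markers 0 passed, with list means between 8.49 and 9.11 in nonirradiated and between 8.42 and 8.83 in irradiated arrays, and of 8 osteoblast and 7 skeletal muscle markers 0 passed. Their part in the differences of Col4a1, Col4a2, Col6a3 and Col14a1 was not tested. Other marrow lists differed more: 4 of 5 adipocyte markers rose, with list means between 6.83 and 7.15 in nonirradiated and between 7.72 and 8.55 in irradiated arrays, and 5 of 6 B cell markers fell, with list means between 9.40 and 9.86 and between 7.11 and 7.91. They were Adipoq, Plin1, Cidec and Fabp4 and, for B cells, Cd79a, Cd79b, Ms4a1, Pax5 and Ebf1. Of 3 leukocyte markers, Ptprc fell by 0.65 on average (adjusted p = 0.00387). Cd53 and Coro1a had -0.45 and -0.47 and did not pass (adjusted p = 0.11 and 0.284). Ptprc also passed within vehicle mice (adjusted p = 0.0392), a call kept in 3 of the 12 fits that left out 1 array. Of the erythroid, neutrophil and osteoclast markers 0 passed. The part of this change in cell composition in the collagen values was not tested either.

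Of 12 genes of collagen breakdown, Mmp13, the collagenase of bone and cartilage, rose after irradiation. It lay at 10.66, 10.35 and 10.67, then 11.35, 10.91 and 11.22, then 11.57, 11.76 and 11.65, then 12.02, 12.03 and 11.41 in the same order. Every irradiated array lay above every nonirradiated one, and the averaged rise was 0.88 (SE 0.128, 1.84-fold, adjusted p = 0.00134), kept in all 12 fits that left out 1 array. Within vehicle mice it rose by 1.10 (adjusted p = 0.00761, and 0.0862 in those groups alone with a block for replicate number), and within PTH mice the difference was 0.66 (adjusted p = 0.0917). The other 11 genes did not pass. Of 9 collagen receptors, Itga2, the alpha chain of a collagen-binding integrin of platelets and other cells, fell by 0.73 on average (SE 0.162, adjusted p = 0.0191), from between 8.77 and 9.39 in nonirradiated to between 7.74 and 8.75 in irradiated arrays, without overlap; the call was kept in 9 of the 12 fits. Of 13 regulators of collagen genes, Ccn2, a matrix signalling protein induced by TGF-beta, rose by 0.56 (SE 0.128, adjusted p = 0.0206), a call kept in 8 of the 12 fits, while Tgfbr1 and Smad3 had -0.52 in vehicle mice and -0.54 in PTH mice (adjusted p = 0.103 and 0.111). The averaged comparison called 6.1% of all genes, so 1 call in each of these short lists is too few to describe the list. Of all genes 4.49% had no overlap there.

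With PTH, 0 collagen genes passed the threshold in nonirradiated or in irradiated mice, where 0% of all 19938 genes were called by limma. At an unadjusted p under 0.05 there were 0 collagens of 44 in nonirradiated mice (356 of all genes, 1.79%) and 2 in irradiated mice (759 of all genes, 3.81%). Those 2 were Col6a5 with 0.33 (SE 0.128) and Col13a1, a transmembrane collagen, with 0.27 (SE 0.114), both with an adjusted p of 0.844. Their means of 5.49 and 6.46 lay below the median of all gene means. The lower of the 2 rows of Col6a5 overlapped, with 5.27, 5.18 and 5.11 in irradiated vehicle arrays and 5.14, 5.32 and 5.30 in irradiated PTH arrays. No difference of the family with PTH was larger than 0.53, that of Col10a1 in irradiated mice, with a 95% interval from -0.082 to 1.14. In nonirradiated mice Col1a1 had 0.32 (95% interval -0.32 to 0.96) and in irradiated mice -0.34 (-0.98 to 0.3), which was 0.01 without irradiated PTH replicate 3. Col1a2 had 0.18 (-0.19 to 0.54) and -0.06 (-0.43 to 0.3). These intervals leave room for differences of either sign in the type I chains.

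The type IV and type VI chains were also not called with PTH. Col6a3 had 0.29 (SE 0.177) in nonirradiated mice, where the arrays did not overlap, and 0.02 (SE 0.177) in irradiated mice. Col4a2 had -0.06 and -0.01 and Col4a1 had 0.12 and -0.06 (SE 0.139 and 0.152). Col8a1 had 0.51 (SE 0.252) in nonirradiated and 0.17 in irradiated mice. In nonirradiated mice 3 of 44 collagens did not overlap (6.82%, next to 6.84% of all genes): Col6a3 higher, and Col4a4 and Col15a1 lower, the last pair having been named after their values were seen.

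In irradiated mice 33 of 44 differences with PTH were above 0, next to 52.2% of all genes, and the median was 0.13, next to 0.01. Of the collagens 8 did not overlap, all higher with PTH (18.2%, next to 9.73% of all genes, which may be higher or lower): Col5a2, Col5a3, Col24a1, Col9a2, Col6a5, Col13a1, Col23a1 and Col26a1, of which several were named after their values were seen. The lower row of Col6a5 did overlap. The medians by class were 0.13 fibrillar, 0.2 cartilage, 0.023 basement membrane, 0.008 beaded filament, 0.18 other fibril-associated and 0.2 other. In this comparison irradiated vehicle replicate 3 gave the lowest of all 12 values for 18 collagens, and irradiated PTH replicate 3, with a narrow range of values, gave the highest for 16. Without irradiated PTH replicate 3 there were 38 differences above 0, and without irradiated vehicle replicate 3 there were 29, with a median of 0.077. Without irradiated PTH replicate 2 there were also 29, with a median of 0.11. The part of these arrays in the direction was not tested further.

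**Figure D4:**
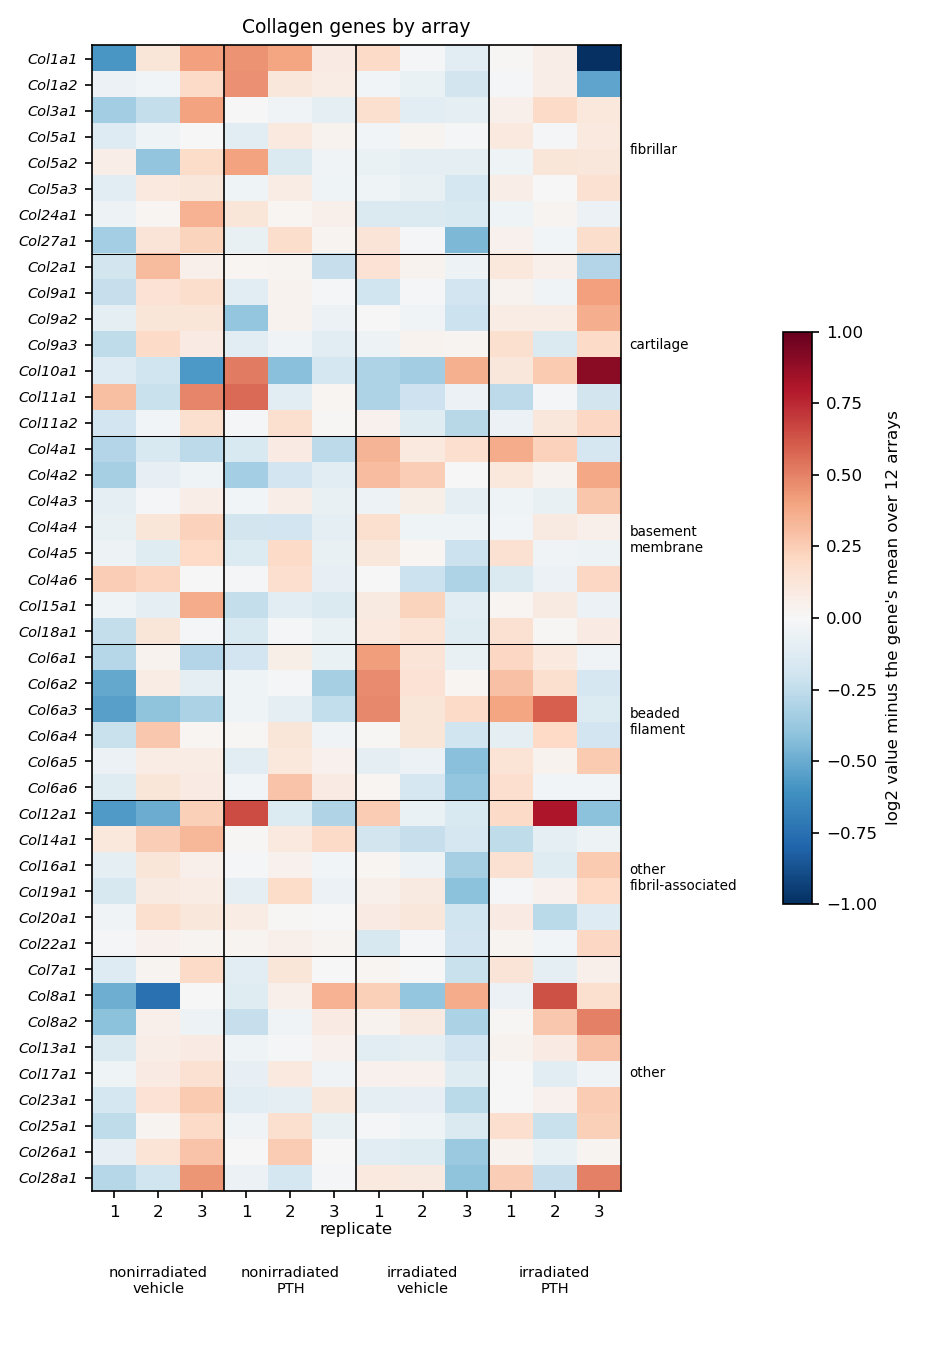
Log2 expression of each of the 44 collagen genes in the 12 arrays minus the gene's mean, by class and group, red above and blue below the mean; the colour scale ends at 1 in both directions. Replicate 3 of irradiated vehicle is blue for many genes of all classes. Replicate 3 of irradiated PTH is red for many genes of the other classes, but in the beaded filament class for Col6a5 only. Col4a2 and Col14a1 separate the irradiated from the nonirradiated arrays, as Col6a3 does apart from replicate 3 of irradiated PTH.

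The effect of irradiation was compared between vehicle and PTH mice by the interaction, in which 0% of genes and 0 of 44 collagens were called, and both differences share no arrays. At an unadjusted p under 0.05 there was 1 collagen, Col9a2 (2.27%, next to 5.49% of all genes). It lay at 7, 7.22 and 7.22 in nonirradiated vehicle arrays and at 7.09, 7.06 and 6.88 in irradiated vehicle arrays. It lay at 6.71, 7.13 and 7.04 in nonirradiated PTH arrays and at 7.17, 7.17 and 7.46 in irradiated PTH arrays, without overlap between the PTH groups. The difference after irradiation was -0.14 in vehicle and 0.3 in PTH mice, with an interaction of 0.44 (SE 0.203, unadjusted p = 0.049, adjusted p = 0.732). The interaction of Col1a1 was -0.66 (95% interval -1.57 to 0.24) and that of Col6a3 -0.27 (-0.82 to 0.27), so the size of the irradiation difference was not shown to differ with PTH for either.

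**Figure D5:**
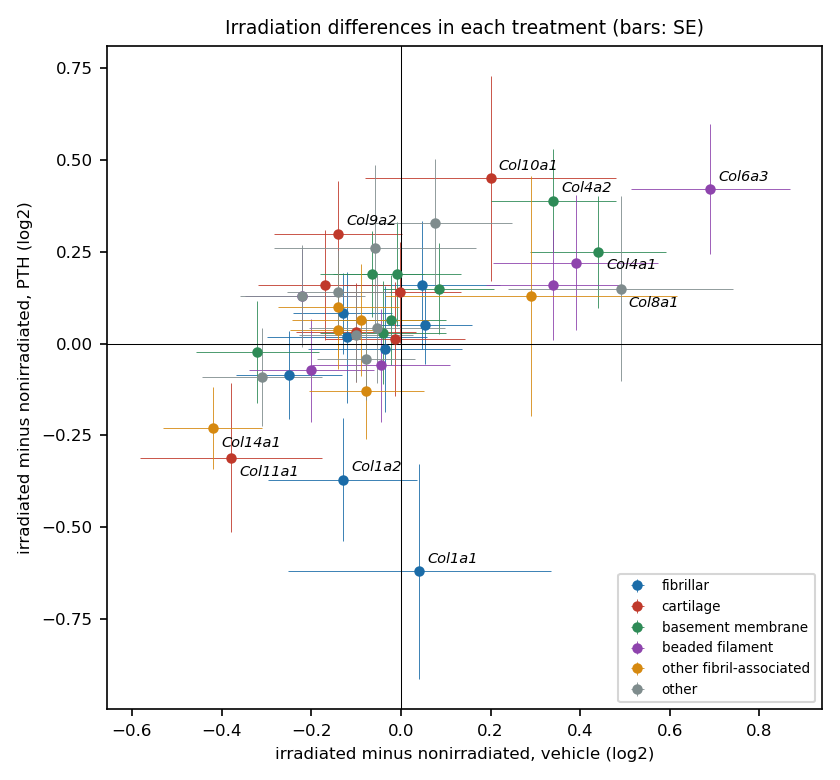
Difference in log2 expression after irradiation in vehicle mice (horizontal) and in PTH mice (vertical) for the 44 collagen genes by class, with bars for the SE of each difference. Col6a3, Col4a1 and Col4a2 lie above 0 and Col14a1 and Col11a1 below 0 on both axes, and Col1a1 lies near 0 in vehicle and at -0.62 in PTH mice.

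The signs of the family as a whole were read with their alternatives. After irradiation 13 of 44 differences were above 0 in vehicle mice (29.5%, next to 45.4% of all genes) and 32 of 44 in PTH mice (72.7%, next to 51.3%). The first count was 21 without nonirradiated vehicle replicate 3, the array with the narrowest range, and 21 without irradiated vehicle replicate 3. Averaged over treatments, 18 were above 0, which became 27 with the quantile normalization repeated and 24 with each array centred on its median. In vehicle mice the count stayed at 13 with either scaling. In PTH mice it was 28 without irradiated PTH replicate 3 (63.6%, next to 50% of all genes). It was 36 there with each array centred on its median (81.8%, next to 61.8%). These were the lowest and highest counts in PTH mice over the fits of all 44 genes. The averaged count was 28 without nonirradiated vehicle replicate 3 (63.6%, next to 49.5% of all genes). It was also 28 without irradiated vehicle replicate 3 (63.6%, next to 50.4%). The count thus turned on single arrays in vehicle mice, and on both single arrays and scaling in the average. Col6a3, Col4a1, Col4a2 and Col14a1 kept their sign in the averaged comparison, as differences of their size would.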

How the data were processed

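Per the labels' protocols, RNA of Trizol-flushed long bones was amplified and biotin-labelled; the submitters' processing notes name affy, RMA and limma. The authors' deposited table holds log2 values, and whether all arrays were normalized together and the genome build are not given in the sources used here. Of 35556 rows, 21789 had 1 symbol in the platform annotation, 1621 several and 12146 none; 19938 genes remained, by the row with the highest mean. Symbols were updated through RefSeq GRCm38.p6, which matched all 46 collagen rows and missed 91 rows of the table. A model of 4 group means over the 12 arrays was fitted (limma 3.58.1, R 4.3.3, 8 residual degrees of freedom, default moderation), tested on simulated data, and called at a Benjamini-Hochberg adjusted p under 0.05; 3 arrays a group limit the precision. Members and lists were chosen with earlier results of these data known. Named were collagens past the threshold, in each class those with the highest means and smallest p, 20 main chains, and in other lists the genes past the threshold or with the smallest p. Of 227 list entries 214 were measured, and Bglap, Runx2 and Loxl2 were among those not analysed here. Alternatives covered variance model, weights, scaling, filters, row choice, sex, the replicate block and leaving out arrays. No label says that a shared replicate number pairs arrays. Only between the irradiated groups did all 3 same-number pairs correlate over 0.1 (0.144 to 0.57). Pairs of different number between these groups lay between -0.509 and 0.396, so pairing is not shown. The block called 0 collagens there.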

Additional observations from a re-analysis of the deposited data

How the results depend on the processing

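These statements cover the alternatives listed in the processing summary and the 12 fits that leave out 1 array. For irradiation averaged over treatments, 3 collagens and 1216 of all genes were called. With dim genes left out, 1 of the 24 collagens tested was called, and 946 of all genes tested. In that fit Col14a1 was not tested and Col4a2 had an adjusted p of 0.0582. When 1 array was left out, between 822 and 1393 of all genes were called, and the collagen count was from 0 to 3. It was 0 when the array left out was replicate 3 of nonirradiated PTH, replicate 1 of irradiated vehicle or replicate 1 of irradiated PTH, and 1 without nonirradiated vehicle replicate 2 or 3, nonirradiated PTH replicate 2 or irradiated vehicle replicate 2. With the replicate number as a block it was 2 (Col6a3 and Col14a1), Col4a2 having an adjusted p of 0.0601, and the block changed the collagen count of no other comparison. For irradiation in vehicle mice the count moved from 0 to 2 of 44 with array weights (Col6a3 and Col14a1), where all genes called rose from 442 to 1149 of 19938. It moved to 1 without both narrow-range arrays (510 of all genes). It was between 0 and 1 when 1 array was left out (between 211 and 762 of all genes). For irradiation in PTH mice the collagen count moved from 0 to 2 with array weights (Col6a3 and Col4a1), where all genes called rose from 485 to 1148. For PTH and for the interaction it was 0 in every fit that was run. No called collagen changed sign. Array weights raised the genes called in the averaged comparison from 1216 to 2517; the cause was not tested. The median SE of a difference between 2 groups was 0.166 over all genes, which limits what 3 arrays a group can show for the differences of most collagens.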
